A study of Mus musculus with 6 samples.

Results

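The genes described here are 10 transcripts by which resident macrophages of the heart are recognised: Adgre1, Csf1r, Cx3cr1, Cd163, Mrc1, Lyve1, Folr2, Timd4, Cd68 and F13a1. They were taken by symbol from the deposited table of 56748 genes, and all 10 were found. RNA had been sequenced from whole mouse hearts at postnatal day 1, in 3 libraries labelled Flox with the genotype FF and 3 libraries from mice with a heart-specific knockout of Kdm5b (cKO), which encodes a histone H3 lysine demethylase. The labels call the FF mice controls, and neither the driver of the deletion nor the heart cells that carry it are given in the sources used here. Samples are numbered within a group, with no statement that each is a separate animal, so the p-values below reflect only how far these libraries differ among themselves, which may be technical.

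Macrophages are present in the heart from embryonic life, when yolk sac and fetal liver progenitors seed it, and they depend on the receptor for colony-stimulating factor 1, Csf1r. In the heart they take up dying cells and debris, and subsets are told apart by surface proteins. Lyve1, Timd4, Folr2, Cd163, Mrc1 and F13a1 are known from long-lived resident subsets, while Adgre1 (F4/80), Csf1r, Cx3cr1 and Cd68 are shared more widely among macrophages and, in part, monocytes. In whole-heart RNA, fewer cells of a type and less RNA per cell cannot be told apart.

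The libraries held 15658893 to 20339926 reads, which were recovered from the deposited FPKM (fragments divided by gene length and by library size). FF replicate 3 stood apart, with correlations of 0.880 to 0.909 with the other libraries across genes, against 0.954 to 0.984 among the other 5. It held thymocyte transcripts: Trbc2, Trbc1 and Tcf7 were at 109, 59.5 and 55.6 FPKM there, and Trbc2 did not exceed 1.02 FPKM elsewhere, so fitted differences are given with and without it. Kdm5b was at 3.19, 3.25 and 3.92 FPKM in FF against 2.80, 3.03 and 2.75 FPKM in cKO hearts, a log2 difference of -0.20 (adjusted p = 0.447, limma), and -0.13 without FF replicate 3. The heart muscle myosin gene Myh6 had a mean of 2300 FPKM in FF against 2548 FPKM in cKO hearts. Macrophage RNA was read in every library, for example the complement gene C1qa at 11.9, 14.6 and 24.8 FPKM in FF against 7.84, 11.9 and 9.97 FPKM in cKO hearts.

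The 10 genes differed in direction between the groups. The mean of Lyve1 was 1.88 times as high in cKO as in FF hearts, and Folr2 and F13a1 were also higher in each cKO library than in any FF library. Adgre1 was lower in each cKO library than in any FF library, at 0.483 times the FF mean, and the means of Csf1r, Cx3cr1 and Cd68 were lower too, with overlapping values. Differences were tested with limma on log2(FPKM + 1), a scale that understates the change of low genes, over the 12678 genes with a mean of at least 1 FPKM. Of the 10 genes, 7 were above that filter and Cd163, Folr2 and Timd4 were below it. The groups did not overlap at 28.0% of all genes above the filter (13.5% higher and 14.5% lower in cKO). Among all 29654 genes with a read that share was 17.5%. None of the 7 passed an adjusted p of 0.05 with 6 libraries (Benjamini-Hochberg over all genes tested), a rule that called 0.166% of all genes tested (0.071% higher and 0.0947% lower in cKO). An unadjusted p under 0.05 was found for 2 of the 7, Lyve1 and Adgre1, and for 17.9% of all genes tested. Without FF replicate 3, 1 of the 7, Lyve1, passed in limma, where 12.0% of all genes did (5.73% higher and 6.26% lower). There 3 of the 7 and 33.5% of all genes had an unadjusted p under 0.05.

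**Figure D1:**
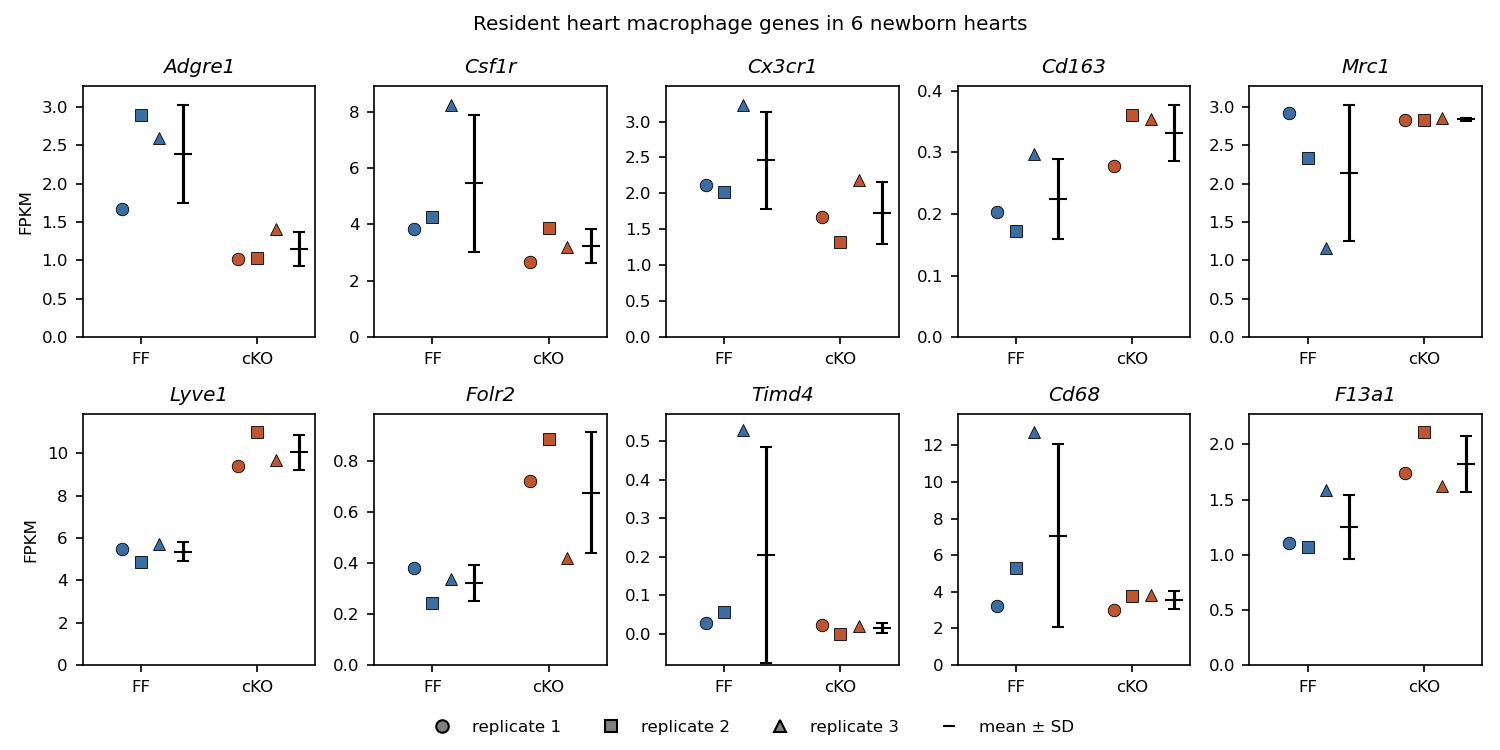
FPKM (vertical axes, each with its own range) of the 10 genes in the 3 FF and 3 cKO libraries; each point is a library, its shape the replicate number, and the bars are mean ± SD. Lyve1 lay between 4.86 and 5.73 FPKM in FF against between 9.42 and 11.0 FPKM in cKO hearts, while Cd68, Csf1r and Timd4 were highest in FF replicate 3.

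Adgre1 (ENSMUSG00000004730, chromosome 17, 57665691 to 57790527, plus strand) encodes F4/80, the adhesion receptor that defines mouse macrophages. It was at 1.66, 2.90 and 2.60 FPKM in FF hearts and at 1.02, 1.03 and 1.41 FPKM in cKO hearts. The groups did not overlap, and FF replicate 1 lay closest to the cKO values. The means were 2.39 ± 0.643 and 1.15 ± 0.222 FPKM (SD, n = 3 each), with 92 to 161 reads per FF library and 65 to 99 reads per cKO library. The log2 difference was -0.64 (SE 0.19, 95% interval -1.09 to -0.19, adjusted p = 0.165, limma), and -0.59 without FF replicate 3 (adjusted p = 0.0879, limma). Adgre1 was therefore about as far apart with as without the library that differed from the rest.

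Csf1r (ENSMUSG00000024621, chromosome 18, 61233670 to 61265221, plus strand), the receptor that macrophages need for survival, was at 3.85, 4.27 and 8.25 FPKM in FF hearts. In cKO hearts it was at 2.67, 3.87 and 3.18 FPKM. FF replicate 3 was the highest library by far, and cKO replicate 2 lay above FF replicate 1, so the groups overlapped. The log2 difference of -0.55 (95% interval -1.19 to 0.08, adjusted p = 0.338, limma) shrank to -0.26 without FF replicate 3. Its span shares 873 bases with Hmgxb3 on the other strand.

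Cx3cr1 (ENSMUSG00000052336, chromosome 9, 119730682 to 119898945, minus strand), the fractalkine receptor, was at 2.12, 2.03 and 3.24 FPKM in FF against 1.67, 1.33 and 2.19 FPKM in cKO hearts. The values overlapped, since cKO replicate 3 lay above FF replicates 1 and 2. The log2 difference was -0.34 (95% interval -0.80 to 0.13, adjusted p = 0.425, limma) with 6 libraries and -0.18 without FF replicate 3. The deposited span of this gene overlaps Xirp1, Csrnp1 and Gorasp1 on the same strand, by 9844, 13496 and 12309 bases. It also overlaps Wdr48 on the other strand by 24972 bases. Reads in shared stretches could belong to more than 1 gene. Xirp1 averaged 46.7 FPKM. The ligand gene of Cx3cr1, Cx3cl1, was at 1.65, 1.15 and 2.47 FPKM in FF against 1.77, 1.96 and 1.98 FPKM in cKO hearts, which overlapped as well. Without FF replicate 3 its groups did not overlap, as at 52.0% of all genes tested. The log2 difference of Cx3cl1 went from 0.10 to 0.28 (adjusted p = 0.188, limma).

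Lyve1 (ENSMUSG00000030787, chromosome 7, 110449814 to 110462446, minus strand) encodes a hyaluronan receptor of perivascular macrophages and of lymphatic endothelium. It had the highest mean FPKM over the 6 libraries of the 10 genes. The FF libraries were at 5.46, 4.86 and 5.73 FPKM and the cKO libraries at 9.42, 11.0 and 9.71 FPKM. The groups were far apart and FF replicate 3 sat with the other FF hearts. With 5.35 ± 0.442 and 10.04 ± 0.836 FPKM (SD, n = 3 each), the log2 difference was 0.80 (SE 0.12, 95% interval 0.51 to 1.09), just short of the threshold (adjusted p = 0.0616, limma). Without FF replicate 3 Lyve1 rose past it, with a log2 difference of 0.84 (adjusted p = 0.0164, limma). The reads behind each value numbered 227 to 320 in FF and 543 to 634 in cKO libraries.

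Because lymphatic vessels also make Lyve1, their markers are given beside it. Of 6 lymphatic endothelial markers 4 were above the filter, 1 higher and 3 lower in cKO with 6 libraries, where none passed the threshold and the median log2 difference was -0.06. Without FF replicate 3 the count turned to 3 higher and 1 lower, with a median of 0.31. Summed over the 6 markers, the level was 21.9 and 26.7 FPKM in FF replicates 1 and 2, which lay below the cKO range of 30.0 to 32.8 FPKM, and 39.9 FPKM in FF replicate 3, which lay above it. No marker was at 0 throughout. Prox1, the transcription factor of lymphatic identity, which heart muscle also expresses, was at 10.1, 7.59 and 5.86 FPKM in FF against 15.8, 16.0 and 16.4 FPKM in cKO hearts. Its log2 difference was 0.98 (adjusted p = 0.0748, limma), and 0.81 without FF replicate 3, where it rose past the threshold (adjusted p = 0.0190, limma). Flt4 and Ccl21a overlapped between the groups, with log2 differences of -0.11 and -0.01 (0.05 and 0.57 without FF replicate 3), and Pdpn lay lower in cKO hearts, at -0.78 (-0.42): the receptor gene Flt4 was at 4.30, 3.86 and 6.04 FPKM in FF against 3.87, 4.73 and 4.14 FPKM in cKO hearts, the chemokine Ccl21a at 1.41, 6.97 and 13.6 against 5.06, 5.93 and 5.51 FPKM, and podoplanin (Pdpn) at 5.45, 6.50 and 13.6 against 3.71, 4.15 and 4.79 FPKM. The part of lymphatic vessels in the Lyve1 difference was not tested.

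Folr2 (ENSMUSG00000032725, chromosome 7, 101489195 to 101506401, minus strand), the folate receptor of resident macrophages, was a low transcript. It was at 0.379, 0.243 and 0.338 FPKM in FF against 0.721, 0.884 and 0.417 FPKM in cKO hearts. No library overlapped the other group, but these values rest on 10, 6 and 10 reads against 22, 27 and 14 reads. The 95% exact Poisson interval of FF replicate 1 was 0.182 to 0.697 FPKM and that of cKO replicate 3 was 0.228 to 0.700 FPKM, which covers counting error only, so those 2 libraries were not told apart at this depth. On log2(FPKM + 1) without a filter, the planned setting for such genes, the difference was 0.33 (95% interval 1.8e-04 to 0.668, adjusted p = 0.461, limma). On log2(FPKM + 0.1) without a filter, a setting added after the values were seen, it was 0.85 (95% interval -0.12 to 1.81, adjusted p = 0.517, limma). Without FF replicate 3 that setting gave 0.88 (adjusted p = 0.358, limma). The deposited span overlaps the noncoding gene Gm10602 on the other strand, which averaged 0.847 FPKM.

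F13a1 (ENSMUSG00000039109, chromosome 13, 37051152 to 37234220, minus strand), the transglutaminase subunit of coagulation factor XIII, is made by macrophages and by the megakaryocyte lineage. It was at 1.10, 1.07 and 1.59 FPKM in FF hearts and at 1.74, 2.11 and 1.62 FPKM in cKO hearts. The groups did not overlap, although FF replicate 3 lay just under cKO replicate 3. The log2 difference was 0.33 (SE 0.16, 95% interval -0.05 to 0.71, adjusted p = 0.342, limma), and 0.43 without FF replicate 3 (adjusted p = 0.0649, limma). Markers of megakaryocytes and platelets are given beside it, none of which was past the threshold in either set of libraries. The summed level of 9 markers was 3.91 to 4.94 FPKM in FF against 5.36 to 6.75 FPKM in cKO hearts, and Gp1bb was at 0 in all libraries. The 2 above the filter, Itgb3 and Gp1ba, had log2 differences of 0.11 and 0.05 (0.11 and -0.01 without FF replicate 3). The platelet chemokine Ppbp was at 0.541, 0.0577 and 0.772 FPKM in FF against 0.795, 1.73 and 1.36 FPKM in cKO hearts, from 10, 1 and 16 reads against 17, 37 and 32 reads. The part of platelets in the F13a1 difference was not tested.

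Cd163 (ENSMUSG00000008845, chromosome 6, 124281615 to 124307486, plus strand), the scavenger receptor for haptoglobin and haemoglobin, was at 0.204, 0.172 and 0.297 FPKM in FF against 0.278, 0.361 and 0.354 FPKM in cKO hearts. FF replicate 3 overlapped cKO replicate 1, and the other FF libraries lay below all cKO libraries. These values rest on 15 to 31 reads in FF and 30 to 42 reads in cKO libraries. On the planned log2(FPKM + 1) scale without a filter the difference was 0.12 (95% interval -0.05 to 0.30, adjusted p = 0.623, limma). On log2(FPKM + 0.1), the setting added later, it was 0.43 (95% interval -0.45 to 1.30, adjusted p = 0.690, limma) with 6 libraries. Without FF replicate 3 that setting gave 0.58 (adjusted p = 0.352, limma).

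Mrc1 (ENSMUSG00000026712, chromosome 2, 14234203 to 14336868, plus strand), the mannose receptor CD206, had cKO values inside the range of the FF values. It was at 2.91, 2.34 and 1.16 FPKM in FF against 2.83, 2.83 and 2.86 FPKM in cKO hearts. FF replicate 1 lay above all cKO libraries and FF replicate 3 far below them. The log2 difference of 0.33 (95% interval -0.21 to 0.88, adjusted p = 0.497, limma) was 0.09 (adjusted p = 0.621, limma) without that library. Mrc1 was the only one of the 10 genes whose lowest value was in FF replicate 3.

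Timd4 (ENSMUSG00000055546, chromosome 11, 46701627 to 46735159, plus strand), the phosphatidylserine receptor TIM-4 used in the uptake of dying cells, was read mostly in FF replicate 3. That library had 22 reads, or 0.529 FPKM with a 95% exact Poisson interval of 0.331 to 0.801 FPKM. FF replicates 1 and 2 had 1 and 2 reads and the cKO libraries 1, 0 and 1 reads. The 0 in cKO replicate 2 has a 95% exact Poisson upper limit of 0.0859 FPKM, and the floor of 3 reads lies at 0.0699 FPKM there. Differences among the 5 libraries other than FF replicate 3 were not detectable at this depth, so no difference between the groups is given. FF replicate 3 also held thymocyte transcripts, with a summed level of 358 FPKM for 16 markers against 2.59 to 3.64 FPKM in the other 5. Whether Timd4 came with that tissue was not tested.

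Cd68 (ENSMUSG00000018774, chromosome 11, 69555039 to 69556979, minus strand), a glycoprotein of macrophage lysosomes, was at 3.22, 5.27 and 12.7 FPKM in FF against 2.98, 3.78 and 3.85 FPKM in cKO hearts. FF replicate 3 was 3.00 times the mean of the other FF libraries, and FF replicate 1 lay inside the cKO range. The log2 difference of -0.66 had a wide 95% interval of -1.63 to 0.31 (adjusted p = 0.455, limma). Without FF replicate 3 it was -0.19 (adjusted p = 0.530, limma).

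**Figure D2:**
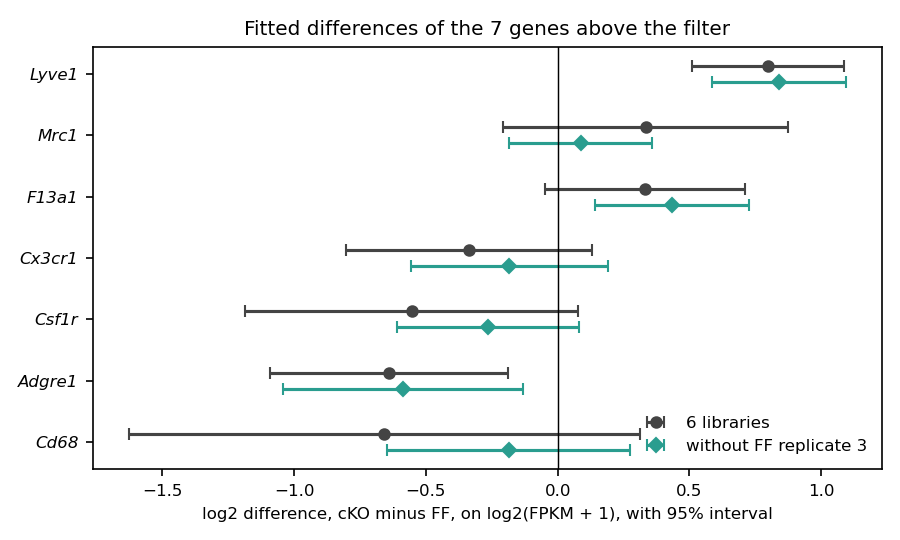
Log2 difference, cKO minus FF, on log2(FPKM + 1) (horizontal axis) with its 95% interval for the 7 genes above the filter, from 6 libraries (circles) and without FF replicate 3 (diamonds). Lyve1 stayed at 0.80 and 0.84 and Adgre1 at -0.64 and -0.59, while Cd68 went from -0.66 to -0.19.

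RefSeq promoter sequence was matched for 7 of the 10 genes, in 9 windows that reach from 250 bases before to 50 bases after a RefSeq start, on GRCm38.p6. Adgre1 and Lyve1 had no entry. Csf1r was left out of the search, so the motif counts below say nothing about its promoter. The windows of Mrc1, Cd68, F13a1 and Folr2 are shown because they hold the letters of factors known for macrophage genes, and because the 4 genes differed in how they moved. Capitals mark GAGGAA or its reverse complement TTCCTC, the core bound by PU.1, the master regulator of the lineage, and TGAGTCA or TGACTCA, the AP-1 motif; the motifs do not overlap in these windows. Where a gene had more than 1 start the most downstream window is printed. The coordinates are chr2:14229164-14229463 (plus strand), chr11:69666121-69666420 (minus strand), chr13:37049164-37049463 (minus strand) and chr7:101845282-101845581 (minus strand), each written 5′ to 3′ along the gene.
Mrc1: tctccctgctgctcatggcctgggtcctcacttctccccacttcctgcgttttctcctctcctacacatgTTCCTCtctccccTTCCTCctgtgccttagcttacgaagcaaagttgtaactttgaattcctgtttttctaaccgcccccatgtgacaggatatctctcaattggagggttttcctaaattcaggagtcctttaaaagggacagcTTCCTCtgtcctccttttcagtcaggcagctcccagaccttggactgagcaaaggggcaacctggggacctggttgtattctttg
Cd68: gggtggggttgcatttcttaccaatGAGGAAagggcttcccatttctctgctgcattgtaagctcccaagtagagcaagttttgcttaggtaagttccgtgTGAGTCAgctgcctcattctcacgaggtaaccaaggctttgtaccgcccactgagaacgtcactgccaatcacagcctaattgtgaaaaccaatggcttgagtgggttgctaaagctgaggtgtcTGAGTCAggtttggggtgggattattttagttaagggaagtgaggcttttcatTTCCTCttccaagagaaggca
F13a1: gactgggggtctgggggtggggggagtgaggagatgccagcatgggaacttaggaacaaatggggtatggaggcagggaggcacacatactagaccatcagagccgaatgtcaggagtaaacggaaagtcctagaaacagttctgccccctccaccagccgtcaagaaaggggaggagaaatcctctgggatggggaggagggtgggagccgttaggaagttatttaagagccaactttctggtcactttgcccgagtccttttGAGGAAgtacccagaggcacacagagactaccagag
Folr2: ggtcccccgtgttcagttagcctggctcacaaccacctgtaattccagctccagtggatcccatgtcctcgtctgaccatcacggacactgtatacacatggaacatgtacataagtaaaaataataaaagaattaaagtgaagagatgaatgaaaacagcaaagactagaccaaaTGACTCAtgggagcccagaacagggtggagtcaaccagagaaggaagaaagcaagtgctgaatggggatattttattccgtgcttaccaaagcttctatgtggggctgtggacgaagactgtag
The PU.1 core was found in 4 of the 9 windows, from 3 genes (Mrc1, Cd68 and F13a1), and in 28.3% of all 32851 promoter windows of this length. The AP-1 motif was found in 2 of the 9 windows (of Cd68 and Folr2), and in 5.20% of all windows. Cd68, with 2 matches of each motif, and F13a1, with 1 PU.1 core in this window, had log2 differences of -0.66 and 0.33. A match is a description of the sequence, not a site of binding.

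Lyve1 held a larger share of the summed FPKM of the 10 genes in each cKO library than in any FF library. Summed over the 10 genes, the level was 20.9, 23.2 and 36.4 FPKM in FF against 23.4, 27.2 and 25.6 FPKM in cKO hearts, with FF replicate 3 above all others and the other FF libraries below the cKO range. Lyve1 made up 26.1%, 21.0% and 15.7% of that sum in FF and 40.3%, 40.4% and 37.9% in cKO hearts. The ratio of Lyve1 to Adgre1 FPKM was 3.28, 1.68 and 2.20 in FF and 9.27, 10.7 and 6.89 in cKO hearts. These ratios restate the values above and were not tested. Over the 7 genes above the filter the median log2 difference was -0.34, beside 0.01 over all genes tested, and it was -0.18 without FF replicate 3. Groups did not overlap at 3 of those 7 genes (Lyve1 and F13a1 higher, Adgre1 lower), where 28.0% of all genes tested did so (13.5% higher and 14.5% lower). Without FF replicate 3 it was again 3 of 7, where 52.0% of all genes did so (25.0% higher and 27.0% lower). Of the 3 genes below the filter Folr2 was also higher without overlap, where 17.5% of all 29654 genes with a read did not overlap. Timd4 is not counted, since its groups were separated by 1 read against 1 read, both under the floor of 3 reads.

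**Figure D3:**
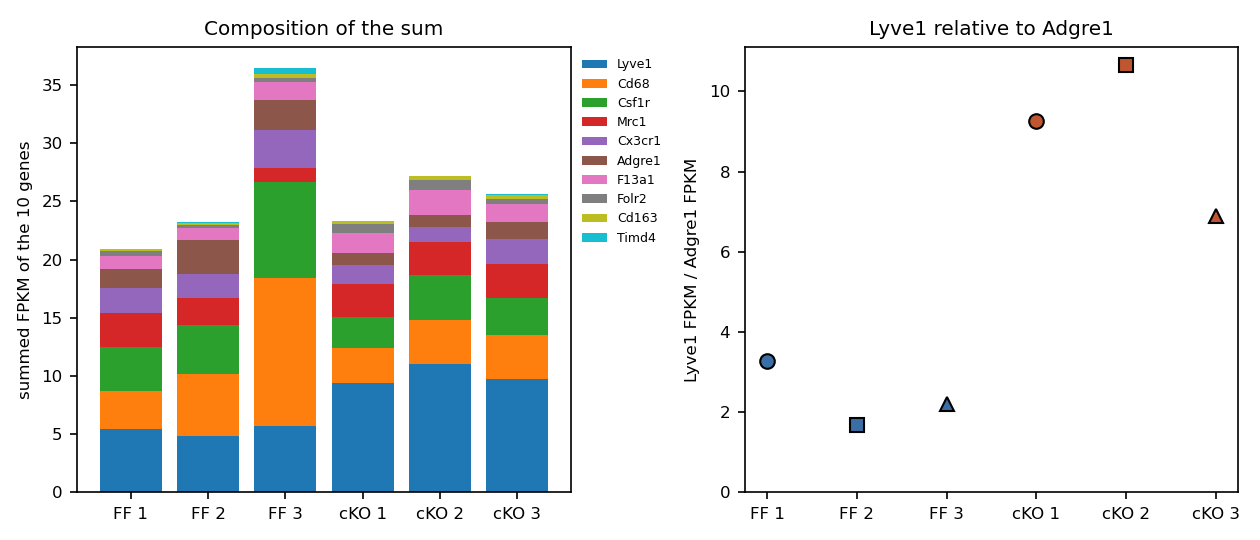
Left, summed FPKM of the 10 genes in each library, stacked by gene; right, the ratio of Lyve1 to Adgre1 FPKM in each library. The sum was highest in FF replicate 3 at 36.4 FPKM, and the ratio lay between 1.68 and 3.28 in FF and between 6.89 and 10.7 in cKO hearts.

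No gene of macrophage growth factor supply passed the threshold. Csf1, the main ligand of Csf1r, was at 3.28, 3.95 and 5.49 FPKM in FF against 4.32, 4.64 and 4.94 FPKM in cKO hearts, and Il34, the other ligand, stayed at or below 1.17 FPKM. Without FF replicate 3 the Csf1 groups did not overlap, as at 52.0% of all genes tested. The log2 difference of Csf1 went from 0.12 to 0.29 (adjusted p = 0.131, limma). Of the list of 10 growth factors, ligands and their receptors 6 were above the filter and none passed the threshold in either set of libraries; its most abundant genes were Tgfb1, Tgfbr1 and Tgfbr2, with log2 differences of -0.57, 0.19 and -0.13. These became -0.13, -0.31 and 0.10 without FF replicate 3, so Tgfbr1 and Tgfbr2 turned direction, and Tgfbr1 was then lower in each cKO library. Among 14 transcription factors of the lineage 10 were tested, 3 had a positive and 7 a negative difference, and none passed with either set of libraries. Spi1, which encodes PU.1, was at 0.869, 1.60 and 2.40 FPKM in FF against 0.845, 0.770 and 0.821 FPKM in cKO hearts. The abundant members Id3, Mitf and Cebpb stood at -0.34, 0.42 and -0.73 (-0.19, 0.11 and -0.52 without FF replicate 3). Maf, known for its part in resident macrophages, was at 1.12, 1.15 and 1.44 FPKM in FF against 1.73, 1.92 and 1.44 FPKM in cKO hearts, so FF replicate 3 and cKO replicate 3 met.

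Genes of opsonin and Fc receptor signalling had members in both directions and none past the threshold. The complement list had a median log2 difference of -0.68 over 7 of 10 genes, with 2 positive and 5 negative, and of -0.21 without FF replicate 3, with the same counts of signs and none past the threshold in either case. C1qb was at 12.4, 18.0 and 29.2 FPKM in FF against 9.77, 10.7 and 9.74 FPKM in cKO hearts (adjusted p = 0.203, limma; 0.0711 without FF replicate 3). C3 had a log2 difference of -0.74 that was -0.14 without FF replicate 3, the library in which it was highest. The 2 positive genes, chosen after their values were seen, were properdin (Cfp) at 0.31 and the C3a receptor gene C3ar1 at 0.05 (0.37 and 0.15 without that library). The list of Fc and ITAM receptor signalling had a median of -0.38 over 8 of 14 genes, with 1 positive and 7 negative, and of -0.24 without FF replicate 3, with 2 positive and 6 negative. Its adaptor Tyrobp was at 5.44, 9.47 and 11.3 FPKM in FF against 4.63, 4.40 and 4.08 FPKM in cKO hearts, without overlap (adjusted p = 0.167, limma). Lyn and Sirpa had log2 differences of -0.31 and -0.38 (-0.27 and -0.21 without FF replicate 3). The kinase gene Syk stood at 0.31 (0.43 without that library) and the receptor gene Fcgr3 at -0.03 (0.21), both named after their values were seen.

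Among receptors and bridges for dying cells, 7 tested genes had positive and 4 had negative differences, both with and without FF replicate 3. Gas6, the bridge between phosphatidylserine and the TAM receptors, was at 59.7, 54.0 and 77.2 FPKM in FF against 94.1, 104 and 96.2 FPKM in cKO hearts. The TAM receptor gene Mertk was at 2.73, 2.70 and 1.96 FPKM in FF against 4.25, 4.25 and 3.93 FPKM in cKO hearts. Their log2 differences of 0.63 and 0.58 missed the threshold with 6 libraries (adjusted p = 0.126 and 0.110, limma), and both rose past it without FF replicate 3 (adjusted p = 0.0164 and 0.0337, limma). They were the 2 called genes of 11 tested in a list of 16, in a fit that called 12.0% of all genes tested (5.73% higher in cKO). The median of the list was 0.22 with and 0.03 without that library. Cd36 and Mfge8 stood at 0.01 and 0.22 (-0.28 and 0.41 without that library), and Gas6 and Mertk are also made by other heart cells. The TAM receptor genes Axl and Tyro3, named after their values were seen, stood at -0.23 and -0.27 (0.03 and -0.13 without FF replicate 3). Tyro3 was lower in each cKO library than in any FF library.

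Among other genes of resident macrophages 7 of 19 were above the filter and none passed with or without FF replicate 3. The most abundant, Ninj1, Pf4 and Cd38, had log2 differences of 0.04, -0.31 and -0.17. The values without FF replicate 3 were 0.33, -0.03 and -0.17, and Ninj1 was then higher in each cKO library. Aif1, which encodes IBA1 and was singled out after its values were seen, was at 1.53, 1.55 and 1.16 FPKM in FF against 0.430, 0.330 and 0.421 FPKM in cKO hearts, and its mean of all libraries lay below the filter. Of 13 myeloid lysosomal enzymes and surface proteins 11 were tested. None passed with 6 libraries, while 3 did without FF replicate 3: Cd63 and the lysozyme gene Lyz2 fell, with log2 differences of -0.67 and -0.51, and the progranulin gene Grn rose by 0.45 on that scale. In that fit 12.0% of all genes tested passed (5.73% higher and 6.26% lower). Lyz2 was at 19.4, 22.1 and 35.2 FPKM in FF against 14.6, 16.0 and 12.5 FPKM in cKO hearts. The cathepsin gene Ctsb and legumain (Lgmn) stood at -0.39 and -0.22 (-0.18 and 0.00 without that library). For iron and haem handling 9 of 12 genes were tested and none passed with or without FF replicate 3, with Fth1, Ftl1 and Tfrc at -0.35, -0.23 and 0.21. Without that library they were at -0.25, -0.04 and -0.12, and all 9 tested genes were negative. The chemokine and cytokine list, with 5 of 17 genes tested, had none past the threshold in either case, and Ccl2, Ccl6 and Cxcl16 stood at -0.61, -0.22 and -0.42 (-0.74, 0.02 and -0.17 without FF replicate 3).

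**Figure D4:**
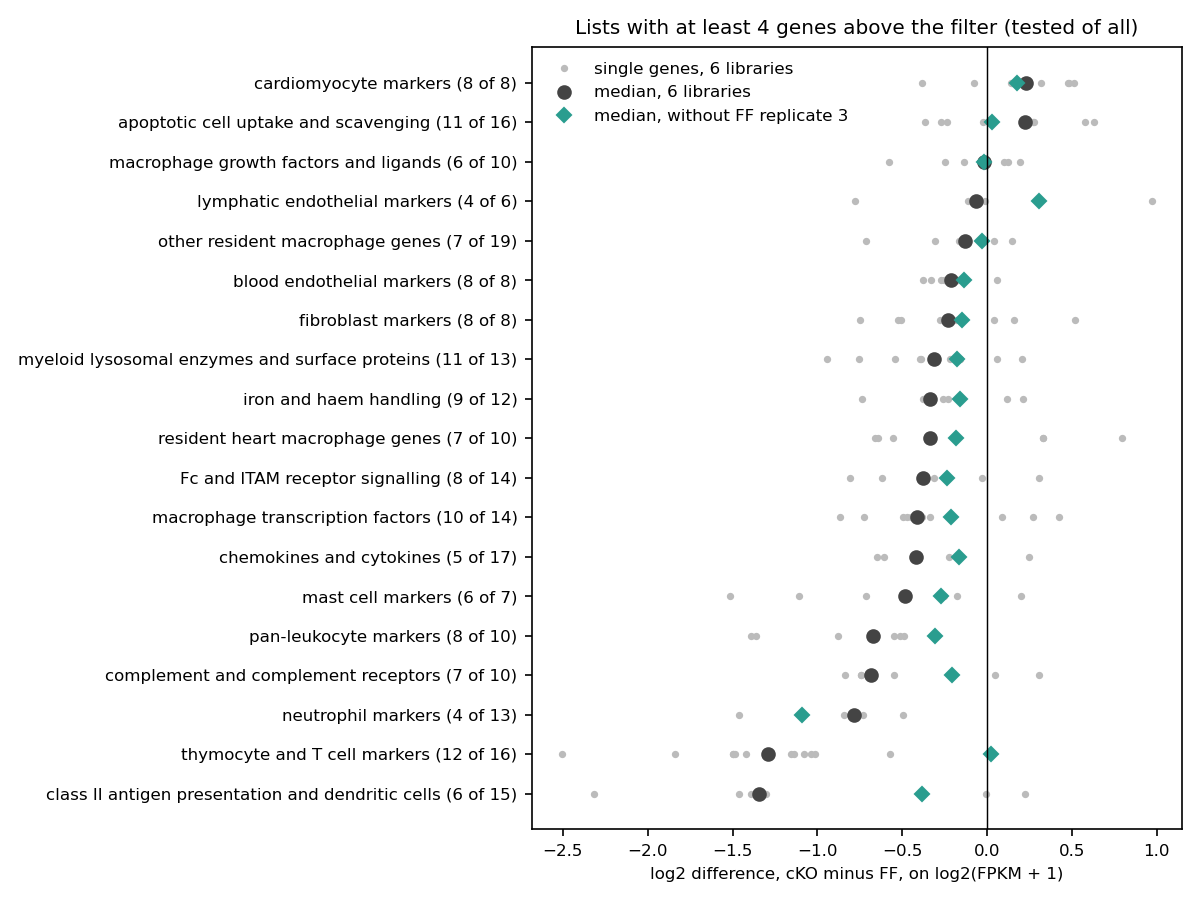
Log2 difference, cKO minus FF, on log2(FPKM + 1) (horizontal axis) for each list with at least 4 genes above the filter; grey dots are genes from 6 libraries, circles the list median from 6 libraries and diamonds the median without FF replicate 3. The class II list went from -1.35 to -0.38 and the thymocyte list from -1.29 to 0.02 without that library, while the macrophage genes went from -0.34 to -0.18.

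Markers of other white blood cells are given beside the macrophage genes, and their part in the results was not tested. The monocyte gene Ccr2 was at 0.0696 to 0.191 FPKM in FF against 0.180 to 0.225 FPKM in cKO hearts, with a higher mean in cKO. The summed level of 12 monocyte markers was 4.34 and 6.15 FPKM in FF replicates 1 and 2, 15.4 FPKM in FF replicate 3 and 2.55 to 5.45 FPKM in cKO hearts, with S100a4 at 0 in all libraries. Of these 2 were above the filter, none passed, and Lst1 and Plac8 stood at -0.89 and -0.22, and at -0.66 and 0.30 without FF replicate 3. Ifitm6, below the filter, was at 0.971, 1.04 and 1.33 FPKM in FF against 0.224, 0.615 and 0.204 FPKM in cKO hearts. These values rest on 15, 15 and 23 reads against 4, 11 and 4 reads. Lst1 rests on 18, 9 and 29 reads against 6, 8 and 7 reads. Class II and dendritic cell genes summed to 9.28 and 12.9 FPKM in FF replicates 1 and 2, 102 FPKM in FF replicate 3 and 6.26 to 6.60 FPKM in cKO hearts. The invariant chain Cd74 was at 2.79, 3.87 and 53.0 FPKM in FF against 0.844, 1.15 and 1.04 FPKM in cKO hearts, and without FF replicate 3 it fell (log2 difference -1.10, adjusted p = 0.0172, limma). The median of H2-Ab1, H2-Eb1 and the other tested genes of that list was -1.35 with and -0.38 without that library. Of its 6 tested genes 1 was positive and 5 negative with 6 libraries, and all 6 were negative without FF replicate 3. The dendritic cell genes Clec9a and Zbtb46, named after their values were seen, overlapped between the groups in both cases. They stood at 0.23 and -0.005 (-0.22 and -0.04 without that library). The pan-leukocyte gene Ptprc (CD45) was at 0.486, 0.273 and 1.19 FPKM in FF against 0.213, 0.215 and 0.189 FPKM in cKO hearts. All 8 tested pan-leukocyte genes had negative differences with 6 libraries and none passed, with Arhgdib, Coro1a and Rac2 at -0.49, -1.36 and -1.39. Without FF replicate 3 those 3 were at 0.08, -0.53 and -0.47, 7 of the 8 were negative and the median was -0.31.

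Among granulocyte and mast cell markers, 1 neutrophil gene passed the threshold with 6 libraries and no mast cell gene did. Neutrophil markers summed to 19.1 to 27.7 FPKM in FF against 10.05 to 12.8 FPKM in cKO hearts, none of 13 at 0 throughout. The granule gene Ngp fell with 6 libraries (log2 difference -1.46, adjusted p = 0.0428, limma), the 1 gene past the threshold among all lists described here. S100a9 and S100a8 fell with it in the fit without FF replicate 3, by 1.11 and 1.06 on the log2 scale. Other neutrophil genes, below the filter and named after their values were seen, had higher cKO means, among them Csf3r at 0.457 and 0.628 FPKM and Mmp8 at 0.218 and 0.309 FPKM in FF and cKO. Mast cell markers summed to 24.4 to 51.6 FPKM in FF against 19.3 to 22.8 FPKM in cKO hearts, with the chymase gene Cma1 at 7.79, 16.3 and 14.2 FPKM in FF against 4.55, 5.52 and 5.37 FPKM in cKO hearts (adjusted p = 0.105, limma), and Cpa3 and Tpsb2 at -0.25 and -0.71 (-0.15 and -0.33 without FF replicate 3). The histamine-forming enzyme gene Hdc, named after its values were seen, stood at 0.20 (0.31), and was higher in each cKO library than in FF replicates 1 and 2. Of 8 B cell markers only Ebf1, which other cells also express, was tested, at -0.21 (-0.40 without FF replicate 3); Cd79a and Cd79b stayed at or below 0.968 and 1.13 FPKM.

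Markers of vessels, connective tissue and muscle were read beside them. Over 8 blood endothelial genes the median difference on the log2 scale was -0.21, with Pecam1 and Cdh5 at -0.33 and -0.27 (-0.11 and 0.00 without FF replicate 3), and none past the threshold with 6 libraries; Fabp4 fell by 0.58 without FF replicate 3. The 8 fibroblast markers had a median of -0.23, with Col1a1, Col3a1 and Postn at -0.18, -0.51 and 0.04. With FF replicate 3 left out these were 0.26, -0.34 and -0.27, so Col1a1 and Postn turned direction. Of these the decorin gene Dcn fell by 0.66 and Tcf21 rose by 0.60 without FF replicate 3. The 8 cardiomyocyte markers had a median of 0.23, with Actc1, Myh6 and Tnnt2 at 0.32, 0.14 and 0.15 (0.47, 0.13 and -0.05 without FF replicate 3), and none passed with or without that library. Of the 8, 6 were positive and 2 negative with 6 libraries, and 5 and 3 without FF replicate 3. The 2 negative genes, named after their values were seen, were Tnni3 and Pln at -0.38 and -0.07 (-0.37 and -0.56 without that library). Tnni3 was lower in each cKO library than in any FF library.

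The profile of the macrophage genes over the 6 libraries was dominated by FF replicate 3. The 10 genes most like their mean deviation were Fads2, Smim24, Usp11, Atp2a3, Ttyh3, Fbln1, Ssc5d, Unc5b, Timp2 and Sik2, with Pearson's r of 0.994 to 0.999 over 6 libraries, and 995 of 11392 genes compared exceeded 0.9. The mean deviation that they were chosen to match was 0.30 in FF replicate 3 and -0.14 to -0.001 in the other libraries. That all 10 had their highest FF value above the whole cKO range follows from this choice. Among the macrophage genes themselves, across 6 libraries that share group and composition, Lyve1 and F13a1 had r = 0.877 (0.972 without FF replicate 3). Adgre1 and Lyve1 had r = -0.88 (-0.88 without it), and Mrc1 and Cd68 r = -0.99 (-0.88 without it). Csf1r and Cd68 had r = 0.954, and 0.687 without FF replicate 3. These are descriptions of 6 or 5 points and carry no test.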

How the data were processed

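The authors deposited FPKM values per gene in 6 columns, per the file headers, 1 per library of total RNA (miRNeasy micro and Ovation Ultralow V2 kits, per the labels' protocols). Tools listed in the submitters' processing notes are TopHat2 (2.0.13), FastQC, edgeR, featureCounts and Subread. The notes list mm10, GRCm39 and GRCh38 as builds, without saying what each was used for. Strand setting and annotation: not given in the sources used here. Coordinates are those of the deposited table. None of the 10 genes had the start or end that RefSeq gives on GRCm38.p6, which of the mouse builds named leaves GRCm39. Promoters are on GRCm38.p6, and no coordinate was converted.

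FPKM times gene length was a whole multiple of 1 step per library (100% of values under 200 reads within 0.1), which gave back reads. The library size behind the FPKM was 0.960 to 1.07 times the recovered total. Intervals and floors (3 reads) cover counting error only.

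Differences, cKO minus FF, were fitted on log2(FPKM + 1) with limma (version 3.58.1, R 4.3.3), with group as the only term and a trended variance prior. Benjamini-Hochberg adjustment at 0.05 was over the genes with a mean of at least 1 FPKM. The fit was tested on simulated data that held no library set apart like FF replicate 3. Leave-one-out fits kept the same genes. The 10 genes and 21 other lists were chosen with earlier results of these data known. The text names, by rule, all 10, Kdm5b, the 3 most abundant genes per list and those that passed with 6 libraries or (up to 4) without FF replicate 3; Csf1, Il34, Cx3cl1, Spi1, Maf, Aif1, Ccr2, Ptprc, Flt4, S100a4, Gp1bb and those marked in the text were added after their values were seen. Predicted genes were left out of the likeness ranking.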

Additional observations from a re-analysis of the deposited data

How the results depend on the processing

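With 6 libraries 21 genes passed in limma (2275 at an unadjusted p under 0.05). This count was 11 with a pseudocount of 0.1, 0 without a filter (3210 unadjusted), 53 with a filter of 5 FPKM, 59 with quantile normalization, 13 with robust variance priors, 4300 with library weights, 65 for protein-coding genes alone and 34 after rescaling outside mitochondrial and haemoglobin genes, and 0 to 1520 when a library was left out: 1520 without FF replicate 3 and 0 without each of the others (1268 to 2041 at an unadjusted p under 0.05). The cause was not tested. With the replicate number as a block it was 2; deviations of same-numbered samples correlated at 0.38, -0.24 and 0.24, so the numbers were not taken to pair samples, and no macrophage gene passed under the block. The median log2 difference of the macrophage genes was -0.34; it was -0.0504 over 10 genes without a filter, 0.0698 over 2 genes (Lyve1 and Cd68) with a filter of 5 FPKM, -0.12 with library weights, and -0.46 to -0.18 when a library was left out. The number of macrophage genes past the threshold was 0, and it was 3 with library weights (Lyve1 and F13a1 higher, Adgre1 lower) and 0 to 1 when a library was left out. No direction of the 7 genes above the filter changed in any alternative run: Lyve1 lay between 0.74 and 0.95 (adjusted p 5.6e-04 to 0.315) and Adgre1 between -0.97 and -0.53 (adjusted p 0.0066 to 0.429). Cd163, Folr2 and Timd4 rest on 42 reads or fewer per library.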
